A study of Homo sapiens with 3 samples.

Results

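Mucins and members of the carcinoembryonic antigen (CEACAM) family are surface glycoproteins of epithelial cells. The set described here was a fixed list of 10 genes, MUC1, MUC4, MUC13, MUC15, MUC16, MUC20, CEACAM1, CEACAM5, CEACAM6 and CEACAM7, looked up by gene symbol in a table of 29960 genes. Of these, 9 were found, 5 mucins and 4 CEACAM genes, and MUC15 was not analysed here. The cells were 5637, an established muscle-invasive bladder cancer line. The resistant group carries the genotype label gemcitabine resistant and the parental group the label WT, and both were labelled untreated when RNA was taken. Gemcitabine is a deoxycytidine analogue that blocks DNA synthesis. The labels describe the exposure that gave the resistant cells as acute, whereas the study's methods describe continuous exposure at rising doses. Libraries were made from poly-A RNA of single-cell clones, so each library stands for 1 clone of a single line. Counts of 3 libraries with a sample label were used, parental 1, resistant 1 and resistant 2, and the authors' group means also include clones whose own values were not used here. The comparison asks which of these surface genes differ between gemcitabine-resistant and parental cells, and how far the resistant clones differ among themselves.

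Membrane mucins carry long serine- and threonine-rich stretches to which O-linked sugars are attached, and form a hydrated coat on the apical side of epithelia such as the urothelium. Their short cytoplasmic parts contact receptors and adaptors. CEACAM proteins are members of the immunoglobulin superfamily that bind each other between and along cell membranes. CEACAM1 spans the membrane and carries an inhibitory signalling motif, whereas CEACAM5, CEACAM6 and CEACAM7 are held by a lipid anchor. CEACAM5 is the carcinoembryonic antigen measured in serum as a tumour marker, and MUC16 carries a marker used in ovarian cancer.

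The coding sequences show how unlike the families are, and the tandem repeat units of MUC4 and MUC1 are given because repeats of this kind carry the sugars and also limit where a short read can be placed. Codons for serine or threonine are in capitals, and the units were read in frame from GENCODE 29 transcripts.
MUC4 unit: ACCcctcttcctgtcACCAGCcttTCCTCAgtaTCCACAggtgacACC
MUC1 unit: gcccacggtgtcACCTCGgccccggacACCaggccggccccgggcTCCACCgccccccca
The MUC4 unit is 48 bases long, occurs 14 times in identical form and holds 8 serine or threonine codons among 16. The MUC1 unit is 60 bases long, occurs 19 times and holds 5 such codons among 20. Serine and threonine made up 38.3% of the codons of MUC4, 36.0% of MUC16, 32.2% of MUC20, 26.1% of MUC1 and 24.02% of MUC13, against 14.3% to 19.5% in the 4 CEACAM genes. In the longest coding transcript, 28.3% of the 50-base windows of MUC4 and 42.4% of those of MUC1 occurred more than once in that transcript. No 50-base window of MUC1, MUC4, MUC13, MUC16 or CEACAM7 was found in the transcripts of another gene. MUC20 shared 57.8% of its windows, chiefly with MUC20-OT1 (42.9%) and the pseudogene MUC20P1 (27.2%). CEACAM5 shared 19.04%, chiefly with AC243967.1 (17.7%), CEACAM6 shared 7.0% and CEACAM1 3.8%. The counting rule for reads that map to several places is not given in the sources used here, and neither is the strand setting. The counts of MUC20, CEACAM5 and the repeats of MUC1 and MUC4 are uncertain to that extent. The gene lengths given with the counts differed from these transcripts for MUC1 (1811 against 4170 bases) and MUC20 (6193 against 2842). For these genes the shares may not describe the sequence that was counted.

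The starts of CEACAM1, CEACAM5 and CEACAM6 are shown because these neighbours on chromosome 19 had the widest differences between clones. Each line gives the 250 bases before the RefSeq start (GRCh38.p14, read on the gene's strand), with matches to the motifs searched in capitals. They lie at chr19:42528482-42528731 on the minus strand for CEACAM1, and at chr19:41708376-41708625 and chr19:41755280-41755529 on the plus strand for CEACAM5 and CEACAM6.
CEACAM1: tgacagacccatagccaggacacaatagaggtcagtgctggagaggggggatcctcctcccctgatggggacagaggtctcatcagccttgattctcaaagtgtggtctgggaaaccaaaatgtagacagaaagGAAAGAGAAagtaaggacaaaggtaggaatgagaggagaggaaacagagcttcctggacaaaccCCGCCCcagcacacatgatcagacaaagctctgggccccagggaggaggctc
CEACAM5: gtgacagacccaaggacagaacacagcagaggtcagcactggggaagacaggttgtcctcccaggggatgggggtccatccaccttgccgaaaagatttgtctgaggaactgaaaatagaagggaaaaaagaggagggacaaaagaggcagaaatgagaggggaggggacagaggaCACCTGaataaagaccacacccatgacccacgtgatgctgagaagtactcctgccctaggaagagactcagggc
CEACAM6: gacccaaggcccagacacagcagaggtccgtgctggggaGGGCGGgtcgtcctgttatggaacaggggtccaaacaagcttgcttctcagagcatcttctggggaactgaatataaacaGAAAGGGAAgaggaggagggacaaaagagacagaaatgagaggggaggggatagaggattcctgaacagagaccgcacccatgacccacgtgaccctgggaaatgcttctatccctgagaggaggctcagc
The windows of CEACAM5 and CEACAM6 were 74.6% identical over their alignment, and those of CEACAM1 and CEACAM6 68.2%. Both strands were searched for 6 motifs: CCGTTA, the core bound by OVOL factors, the E-box CAGGTG bound by ZEB and SNAI factors, the interferon response core GAAANNGAA, the STAT element TTCNNNGAA, the AP-1 element TGANTCA and the GC box GGGCGG. CEACAM1 and CEACAM6 each held an interferon response core, 116 and 131 bases before the start, which 6.87% of 34943 RefSeq windows of this length hold, and each held a GC box, found in 42.5%. CEACAM5 held an E-box 74 bases before the start, as do 17.5% of all windows. The OVOL core, present in 2.45% of all windows, was in none of the windows of the 8 members with an entry. In the study, MUC15, CEACAM5 and CEACAM7 were listed among shared targets of OVOL1 and OVOL2. A match or its absence in 250 bases describes these letters only. GAAANNGAA and TTCNNNGAA can overlap by their shared GAA, but no matches to different motifs overlapped in the member windows.

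The libraries held 14475531 to 17461941 reads on genes. Counts were scaled to CPM, counts scaled to a common library size, by edgeR's TMM method, and 3 reads, taken as the floor, corresponded to 0.173 to 0.213 CPM. Intervals and floors cover counting error only. Genes entered the test with a mean of at least 10 reads over the 3 libraries, which 14846 genes and 6 members passed. With 1 parental library the spread came from the resistant pair alone (1 residual degree of freedom, moderated across genes), on the assumption that parental clones vary like resistant ones. The SE given with edgeR fold changes was derived from the test's F statistic and is not an output of the fit. An exact permutation of 1 library against 2 cannot go below 0.333. Of the 8 epithelial markers 6 had at least 3117 reads in every library, whereas KRT5 and KRT17 were lower in the resistant ones, with values given with the lists. Of the leukocyte markers 5 of 6 were in the table, with a summed level of 0.567 to 1.44 CPM. CD14 was at 3, 12 and 18 reads in parental 1, resistant 1 and resistant 2, and was tested but not called. PTPRC was at 4, 3 and 2 reads and CD3E at 1, 3 and 0. Of 4 endothelial markers 3 were in the table, at 0.425 to 2.01 CPM in sum, with KDR at 0, 7 and 20 reads, VWF at 6, 3 and 14 and CDH5 at 0, 0 and 1. KDR was below the filter, and in edgeR without the filter it was called higher (adjusted p = 0.0395). Fibroblast markers summed to 145 to 172 CPM, nearly all from COL1A1 and COL1A2, with PDGFRB at 2 to 4 reads and COL3A1, chosen after its values were seen, at 0 to 2. In bulk RNA, fewer cells with a transcript and less transcript per cell cannot be told apart.

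None of the 6 members tested had an adjusted p under 0.05 in the comparison of resistant with parental cells, where 0.525% of all genes tested did, 0.135% being higher and 0.391% lower (edgeR quasi-likelihood test, Benjamini-Hochberg adjustment). At an unadjusted p under 0.05 there was 1 member, CEACAM6, against a background of 9.62%. For 5 of the 6 the parental value lay between those of the resistant clones, and CEACAM6 alone had the parental library above both, an arrangement (above or below both) seen in 69.6% of all genes tested. Between the resistant clones 5 of 6 members differed by at least 2-fold, 4 being higher in resistant 2 and 1 lower. Of all genes tested 10.7% differed that much, 7.00% being higher and 3.73% lower. The 4 higher ones, MUC16, CEACAM1, CEACAM5 and CEACAM6, all lie on chromosome 19, and the CEACAM genes are neighbours there. The median log2 ratio of resistant 2 to resistant 1 was 0.57 on that chromosome and -0.01 over all genes tested. The part of this shift in the count was not tested. Resistant 1 differed from parental 1 by at least 2-fold in 4 of the 6, with 1 higher (background 6.79%) and 3 lower (6.72%, 13.5% in either direction). Resistant 2 did so in 1, CEACAM6, which was lower (background 7.13% lower, 9.97% higher, 17.1% in either direction). The authors' means differed by at least 2-fold for CEACAM6 alone of the 6, as for 6.36% of 14630 genes. The plot of levels by library shows this order for every member found.

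**Figure D1:**
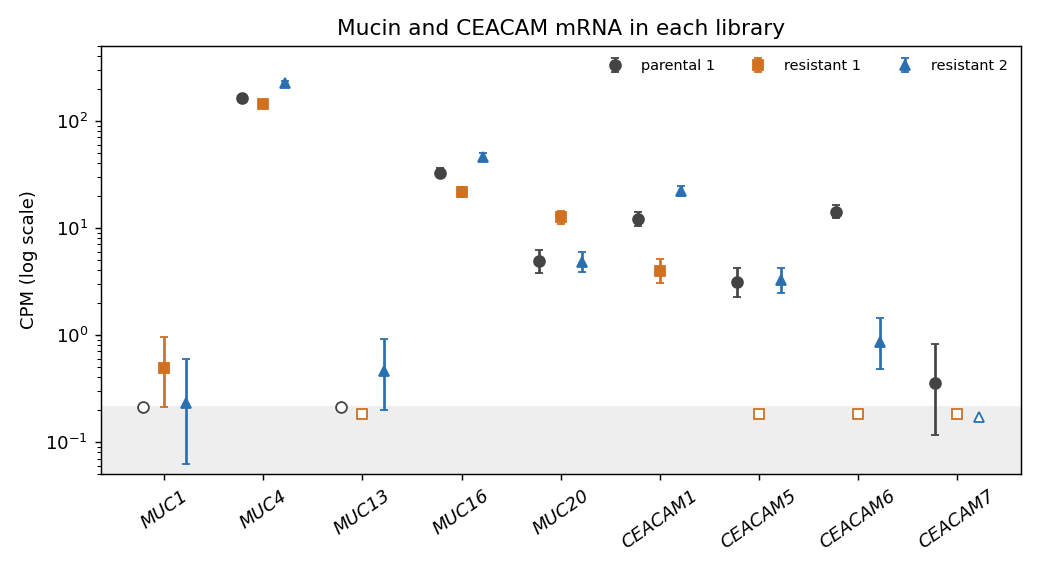
CPM (log scale) of the 9 members found, in parental 1 (circles), resistant 1 (squares) and resistant 2 (triangles), with exact 95% Poisson intervals for counting error. Open symbols mark counts of 3 or fewer, drawn at the floor of that library, and the shaded band reaches the highest floor, 0.213 CPM. CEACAM6 and CEACAM7 are the members with the parental library above both resistant ones, and CEACAM5 and CEACAM6 are at or under the floor in resistant 1.

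CEACAM6 (ENSG00000086548, chromosome 19, 42254885 to 42276113, plus strand, in the hg19 coordinates of the table) encodes a lipid-anchored adhesion protein that is raised in many carcinomas. It was read 200 times in parental 1, once in resistant 1 and 15 times in resistant 2. These reads correspond to 14.2, 0.0612 and 0.864 CPM. The parental library was far above both resistant ones, which themselves differed. Resistant 2 was 16.4-fold below parental 1 (95% counting interval 9.72 to 29.9), and resistant 1 was 232-fold below it, an estimate from 1 read with an interval of 41.1 to 9195. Both resistant libraries were at least 2-fold below the parental one in 3.11% of all genes tested. The mean of its 1 and 15 resistant reads is under 10, so CEACAM6 met the filter only through parental 1, where it was high. The tests that use the filter are drawn from that same high value. The fitted log2 fold change was -4.90 ± 0.87 (SE) with an adjusted p of 0.0571, or 0.000402 before adjustment (edgeR quasi-likelihood). It passed the threshold with the size factors of DESeq2 in place of TMM (adjusted p = 0.0261 in edgeR, background 0.977%), in the DESeq2 Wald test (adjusted p = 0.000103, background 1.67%) and in edgeR without the filter on low counts (adjusted p = 1.4e-13, background 2.02%). Without the filter the SE was 0.597 for CEACAM6 and 0.623 for CEACAM5, against 0.866 and 1.38 with it. Why the SE was smaller in that fit, and how far the fit uses a gene's own spread between clones, was not tested. In normalized counts the authors' mean of CEACAM6 was 87.2 for the parental and 4.48 for the resistant group, a log2 ratio of -4.01 after a pseudocount of 1. Scaled to the same total, parental 1 was 2.33 times the authors' parental mean, so the other parental clones had on average less CEACAM6 than the library tested.

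CEACAM5 (ENSG00000105388, chromosome 19, 42212504 to 42233718, plus strand) starts 42.4 kb before CEACAM6. It was read 44 times in parental 1, 0 times in resistant 1 and 57 times in resistant 2, or 3.12, 0 and 3.28 CPM. Parental 1 and resistant 2 were close, with resistant 2 at 1.05 times parental 1 (95% counting interval 0.697 to 1.60), and resistant 1 had no read. Against the floor of 3 reads, resistant 1 was 16.99-fold lower than parental 1 and 17.9-fold lower than resistant 2. The lower limits of the 95% counting intervals were 13.2 and 14.1. The fitted log2 fold change, -0.92 ± 1.38 (SE), had an adjusted p of 0.930 (edgeR). Without resistant replicate 2 the log2 ratio, with resistant 1 at the floor, was -4.09, so the value for the resistant group rests on which clone is taken. The authors' means were 19.8 normalized counts in the parental and 16.3 in the resistant group, and parental 1 stood at 2.26 times the authors' parental mean.

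CEACAM7 (ENSG00000007306, chromosome 19, 42177235 to 42210895, minus strand), a lipid-anchored member known from colon and pancreatic ducts, starts next to CEACAM5, with 1.61 kb between the genes. It was read 5 times in parental 1 and 0 times in both resistant libraries, and stayed below the filter. With the resistant libraries set to the floor, the parental library was 1.93-fold above resistant 1 and 2.05-fold above resistant 2. The lower limits of the counting intervals were only 1.06 and 1.13. The authors' means were 2.04 and 0 normalized counts.

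CEACAM1 (ENSG00000079385, chromosome 19, 43011456 to 43065386, minus strand), the signalling member that binds CEACAM5 and CEACAM6 on neighbouring cells, lies 757 kb from CEACAM6. It was read 171, 65 and 383 times, in the order parental 1, resistant 1 and resistant 2, giving 12.1, 3.98 and 22.05 CPM. The parental value lay between the clones. Resistant 1 was 3.05-fold below parental 1 (2.28 to 4.12) and resistant 2 was 1.82-fold above it (1.51 to 2.19), which left the resistant clones 5.54-fold apart (4.25 to 7.32). The fitted log2 fold change was 0.10 ± 0.81 (SE, adjusted p = 0.992, edgeR), and the ratio of the authors' means had the opposite sign, -0.45. By the authors' resistant mean, resistant 1 stood at 0.442 times and resistant 2 at 2.36 times that mean.

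**Figure D2:**
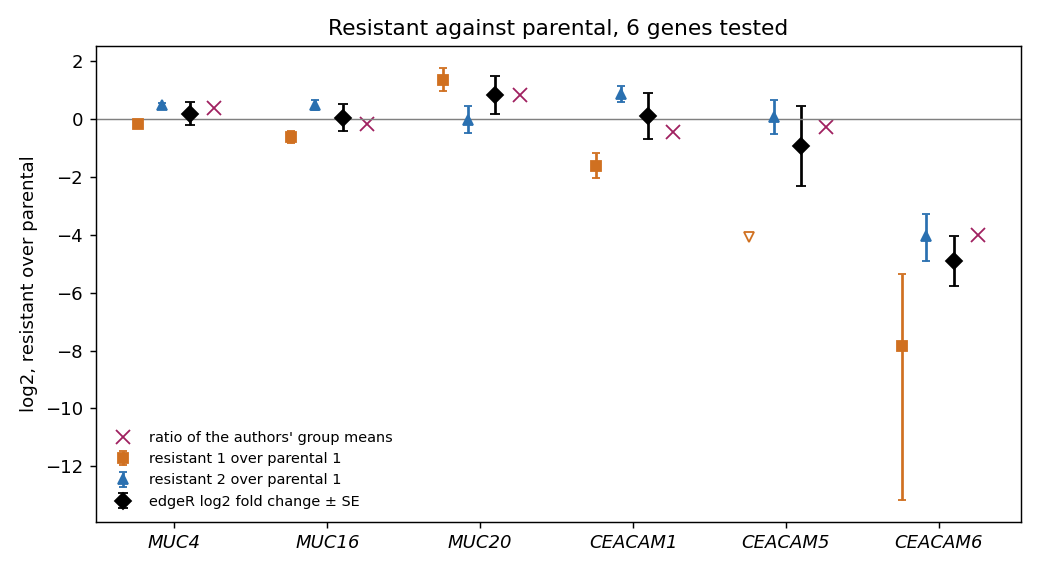
Log2 ratio of resistant to parental for the 6 members tested. Squares and triangles compare resistant 1 and resistant 2 with parental 1, with 95% counting intervals. The open inverted triangle is CEACAM5 in resistant 1, set at the floor of 3 reads. Diamonds show the edgeR fold change ± SE, derived from the test's F statistic, and crosses the ratio of the authors' group means. CEACAM6 is below 0 by every measure, down to -7.86 in resistant 1. For CEACAM1 and CEACAM5 resistant 1 is below 0 and resistant 2 above it, though for CEACAM5 the interval of resistant 2 includes 0.

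Compared per length, as FPKM, the CEACAM transcripts of the clones had unlike make-up. Summed over CEACAM1, CEACAM5, CEACAM6 and CEACAM7 the level was 9.67 FPKM in parental 1, 1.19 in resistant 1 and 7.69 in resistant 2. CEACAM6 gave 52.9% of this sum in parental 1, 1.97% in resistant 1 and 4.14% in resistant 2. CEACAM1 gave 34.7%, 98.0% and 81.1% in the same order. CEACAM5 gave 10.9%, 0% and 14.8%. Among these 4 genes the highest was CEACAM6 in parental 1 and CEACAM1 in both resistant libraries. This order in the parental group rests on parental 1, since the authors' parental means per kb of transcript were 52.4 normalized counts for CEACAM1 and 32.3 for CEACAM6, or 56.7% and 34.9% of the sum of the 4. In the authors' resistant means CEACAM1 gave 84.0% and CEACAM6 3.63%. The summed level of resistant 1 was the lowest of the 3 libraries.

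**Figure D3:**
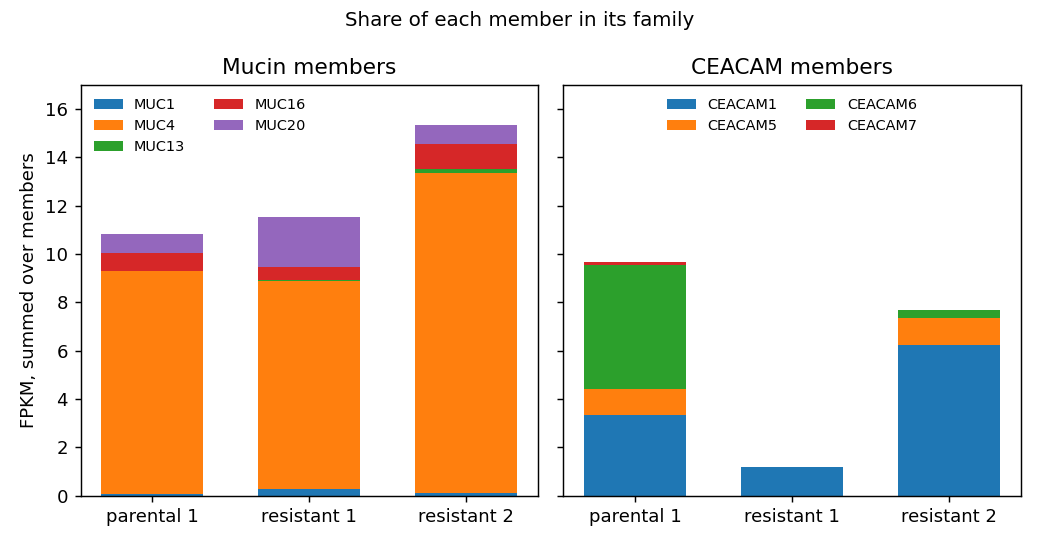
FPKM of the mucin members (left) and the CEACAM members (right), stacked by gene for each library, with no error shown. MUC4 makes up most of each mucin bar, from 74.6% to 86.2%, while CEACAM6 is 52.9% of the CEACAM bar in parental 1 and at most 4.14% in the resistant libraries.

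Genes around the CEACAM cluster were also higher in resistant 2 than in resistant 1. Of 34 other genes tested that start within 1 Mb of CEACAM6, 31 were higher in resistant 2, with a median log2 ratio of 0.77, against 0.57 over 1089 genes of chromosome 19 and -0.01 over all genes tested. Around CEACAM1 it was 21 of 23 genes with a median of 0.91. The members exceeded these medians. The log2 ratio of resistant 2 to resistant 1 was 2.47 for CEACAM1. For CEACAM5 it was 4.16 with resistant 1 at the floor. For CEACAM6 it was 3.82, an estimate resting on 1 read in resistant 1, or 2.23 with resistant 1 at the floor. Of the neighbours, 2 of 23 were beyond CEACAM1 and 1 of 34 beyond CEACAM6, the latter set at its floor. In the comparison of resistant with parental cells the neighbours of CEACAM6 had a median log2 fold change of 0.02 and none of the 34 was called (edgeR). The part that the shift of chromosome 19 has in the members' differences between clones was not tested.

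**Figure D4:**
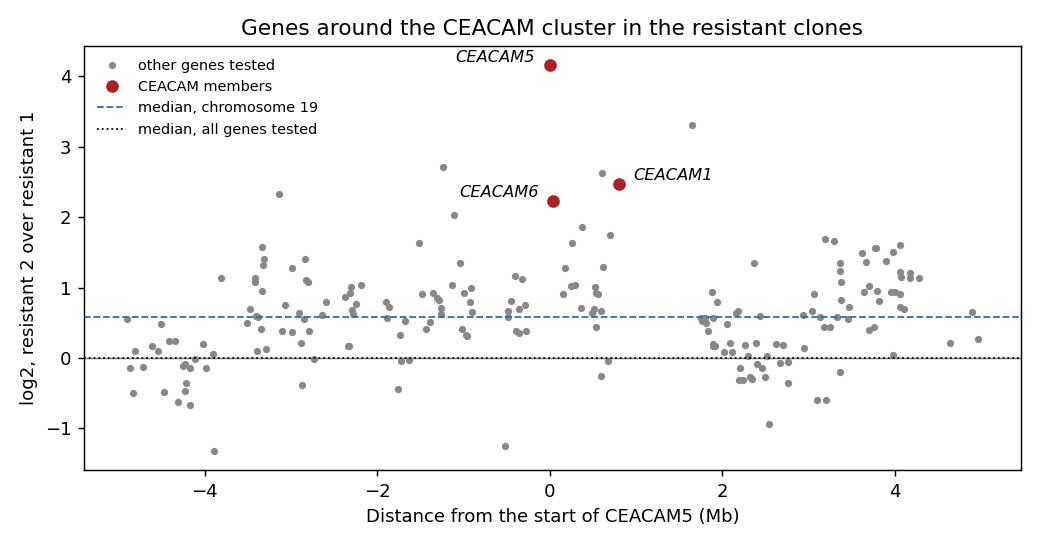
Log2 ratio of resistant 2 to resistant 1 for genes tested on chromosome 19, against distance in Mb from the start of CEACAM5, counts under 3 being set to 3 reads. Dashed and dotted lines are the medians of chromosome 19 (0.57) and of all genes tested (-0.01); CEACAM5, CEACAM6 and CEACAM1 are at 4.16, 2.23 and 2.47.

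MUC4 (ENSG00000145113, chromosome 3, 195473636 to 195539148, minus strand), a large membrane mucin that binds the receptor ERBB2, was the most abundant member. It was read 2288, 2336 and 3952 times in parental 1, resistant 1 and resistant 2, or 162, 143 and 228 CPM. Resistant 2 was the highest, and parental 1 lay between the clones. The clones were 1.59-fold apart (95% counting interval 1.51 to 1.68). The fitted log2 fold change of 0.19 ± 0.40 (SE) had an adjusted p of 0.955 (edgeR). Per length, MUC4 was at 9.24, 8.62 and 13.2 FPKM, above 56.0% to 67.0% of the genes tested, and supplied 85.4%, 74.6% and 86.2% of the FPKM of the 5 mucins. The authors' means were 1828 normalized counts in the parental and 2387 in the resistant group, a log2 ratio of 0.38.

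MUC16 (ENSG00000181143, chromosome 19, 8959520 to 9092018, minus strand), the longest member and a ligand of mesothelin, was read 463, 352 and 804 times, or 32.8, 21.5 and 46.3 CPM. As for MUC4, the parental library lay between resistant 1 and resistant 2, and the clones were 2.15-fold apart (1.89 to 2.44). Its length of 43816 bases placed it at only 0.730, 0.507 and 1.05 FPKM, above 8.36% to 16.1% of the genes tested. The fitted log2 fold change of 0.05 ± 0.48 (SE, adjusted p = 0.994, edgeR) and the ratio of the authors' means, -0.15, differed in sign. Within 1 Mb of MUC16, 23 of 28 genes were higher in resistant 2 than in resistant 1, with a median log2 ratio of 0.45, and MUC16 itself was at 1.10.

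MUC20 (ENSG00000176945, chromosome 3, 195447753 to 195467994, plus strand), a mucin that associates with the receptor MET, lies 5.64 kb from MUC4. It was read 69, 206 and 84 times, or 4.89, 12.6 and 4.84 CPM. Here resistant 1 was the high library, and resistant 2 was at 0.989 times parental 1 (0.710 to 1.38). Resistant 1 was 2.61-fold above resistant 2 (2.01 to 3.40), the reverse of the order of MUC4. None of the 19 other genes tested within 1 Mb lay beyond MUC20 in this ratio, and their median log2 ratio of resistant 2 to resistant 1 was -0.25 against -1.38 for MUC20. The fitted log2 fold change was 0.83 ± 0.64 (SE, adjusted p = 0.789, edgeR), and the ratio of the authors' means was 0.82.

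The other mucins were at the limit of detection. MUC1 (ENSG00000185499, chromosome 1, 155158300 to 155162707, minus strand), the broadly expressed epithelial mucin, was read 2, 8 and 4 times, and the authors' means were 5.74 and 5.83 normalized counts. Its intervals overlapped between all libraries, so no difference was detectable at this depth, and reads from its repeats may not have been counted. MUC13 (ENSG00000173702, chromosome 3, 124624289 to 124672663, minus strand), a mucin of the gut lining, was read 0, 2 and 8 times. With parental 1 set to the floor, resistant 2 was 2.17-fold above it, and the lower limit of the counting interval was 1.39. The authors' means were 0.662 in the parental and 4.39 in the resistant group. Neither MUC1 nor MUC13 entered the test.

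Most other genes of both families had few reads. Of 7 other membrane mucins 6 were in the table and 1 was tested, CD164, a sialomucin of endosomes and the cell surface, at 24.7, 38.5 and 25.8 FPKM in parental 1, resistant 1 and resistant 2 (log2 fold change 0.32, adjusted p = 0.903, edgeR). The next by level were MUC12, at 3, 8 and 1 reads, and EMCN, at 1, 0 and 2. Of 8 secreted, gel-forming or related mucins 5 were in the table and 2 were tested, with none called. MUC5AC, a gel-forming mucin of airway and stomach, was read 19, 0 and 13 times, MUC2 11, 0 and 10 times and OVGP1 4, 6 and 23 times. MUC6, chosen after its values were seen, was read 5, 0 and 4 times. In MUC2, MUC5AC and MUC6 resistant 1 had no read, as in CEACAM5. Of 18 other CEACAM and pregnancy-specific glycoprotein genes 17 were in the table and CEACAM19 alone was tested. CEACAM19, a little-studied membrane member, was read 47, 144 and 168 times, the parental library being below both resistant ones (log2 fold change 1.47 ± 0.51 SE, adjusted p = 0.390, edgeR). PSG9 and PSG3 had no more than 4 reads in any library. CEACAM3 and CEACAM8, which mark granulocytes and were chosen after their values were seen, were read 0 to 2 times.

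Most of the enzymes that attach sugars to mucins passed the filter on low counts. Of 24 enzymes of O-glycan initiation and core formation 18 were tested and none was called, with a median log2 fold change of -0.01 against 0.03 over all genes tested. The transferases GALNT2 and GALNT10, which attach the first sugar, were at 75.8 to 106 and at 20.1 to 31.8 FPKM. GALNT5, of the same family, was at 12.5, 20.9 and 26.4 FPKM in parental 1, resistant 1 and resistant 2 (log2 fold change 0.86, adjusted p = 0.516, edgeR). GALNT18, chosen after its values were seen, was read 103, 0 and 15 times, with a log2 fold change of -4.03 ± 1.08 (SE, adjusted p = 0.225, edgeR). The authors' means of GALNT18 were nearer to each other, at 120.7 normalized counts in the parental and 73.9 in the resistant group. Of 15 capping enzymes, which add sialic acid or fucose, 13 were tested and none was called, with a median of 0.47 and 8 of 13 above 0. The most abundant, the sialyltransferase ST3GAL1, was at 51.6, 46.6 and 60.1 FPKM. ST3GAL2 and ST6GAL1, which also add sialic acid, had log2 fold changes of 0.47 and -0.91 and did not pass the test. The fucosyltransferase FUT3, which completes the Lewis antigens borne by CEACAM proteins and mucins and was chosen after its values were seen, was read 14, 71 and 157 times (log2 fold change 2.74 ± 0.72 SE, adjusted p = 0.216, edgeR).

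Of 18 partners and sheddases 17 were tested and none was called, with a median log2 fold change of -0.02. The sheddase MMP14 was at 131, 179 and 266 FPKM, and ezrin (EZR), which ties membrane proteins to actin, at 158, 275 and 179. The receptor EGFR was at 45.3 to 50.2 FPKM. ERBB2, the partner of MUC4, was at 57.8 to 70.3 FPKM, and like MSLN it was chosen after its values were seen. MSLN, mesothelin, the ligand of MUC16, was read 99, 57 and 47 times (log2 fold change -1.18, adjusted p = 0.518, edgeR).

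Of 14 regulators and companions of mucous epithelia 13 were in the table, 9 were tested and none was called, with a median log2 fold change of -0.31. KLF5, a factor of basal and secretory epithelia, was read 4385, 2138 and 5850 times, lowest in resistant 1. EHF and PPARG, factors of epithelial and urothelial differentiation, were read 2629 to 2900 and 2255 to 2474 times. FOXA2, a factor of endoderm-derived epithelia chosen after its values were seen, was read 43, 161 and 407 times (log2 fold change 2.45 ± 0.64 SE, adjusted p = 0.217, edgeR). Among the 8 epithelial markers 1 was called, KRT5, a keratin of basal cells, which fell from 3829 reads in parental 1 to 160 and 240 in the resistant libraries (log2 fold change -4.52 ± 0.37 SE, adjusted p = 0.00223, edgeR). The authors' means of KRT5 were 11544 and 2047 normalized counts, the resistant mean being far above both resistant libraries used here. KRT17, a keratin of basal and stressed cells chosen after its values were seen, was read 2759, 281 and 926 times (log2 fold change -2.47 ± 0.56 SE, adjusted p = 0.133, edgeR). It passed the threshold in the DESeq2 Wald test (adjusted p = 0.00214) and in edgeR without the filter (adjusted p = 9.8e-09). KRT5 and KRT17 were lower in both resistant libraries, as was CEACAM6, in a list whose median was -0.57, and their part in the CEACAM6 difference was not tested. KRT19, KRT8 and KRT7, keratins of simple and luminal epithelia, had log2 fold changes of -0.04, -0.76 and -1.05 and did not pass the test.

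**Figure D5:**
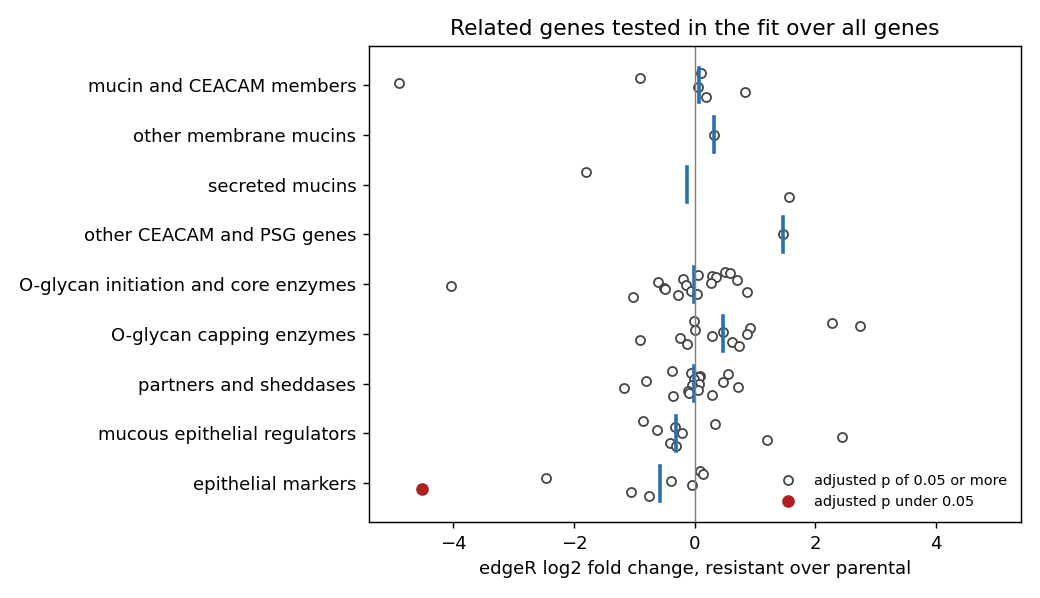
EdgeR log2 fold change of resistant over parental for the genes tested in each list, 1 point per gene, with the list's median as a vertical bar. KRT5 at -4.52 is the filled point, the gene with an adjusted p under 0.05; the widest values among the open points are those of CEACAM6 (-4.90), GALNT18 (-4.03) and FUT3 (2.74).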

How the data were processed

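The authors sequenced poly-A RNA of single-cell clones (Illumina), with 3 clones per group by the study. Per the labels' processing notes CASAVA 1.8 and build hg19 were used. The aligner, the counter and the annotation are not given in the sources used here. The authors deposited, per gene, raw read counts and FPKM for each library and the signal of each group, their mean of counts divided by size factors, which has no SD. The FPKM equalled count per gene length and library total to within 4.9e-09. The 6 per-library columns without a sample label, and the authors' columns of their own comparison (fold changes with raw and adjusted p-values), were not used.

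The 3 labelled libraries (1 parental, 2 resistant) were grouped by title. The clones are called independent in the study. The p-values rest on the spread between the 2 resistant libraries, moderated across genes, and on none between parental clones. Genes with a mean of at least 10 reads were fitted with edgeR 4.0.16 (quasi-likelihood, TMM, R 4.3.3) and p-values adjusted over all genes by Benjamini-Hochberg. The SE of an edgeR fold change was computed as the absolute log2 fold change divided by the square root of the test's F statistic. The fit was also run on counts simulated with a common dispersion for all genes and both groups. That run cannot test whether parental clones vary like resistant ones. Intervals of ratios are exact binomial at 95%. Counts of 3 or fewer were set to 3 for ratios against the floor. Alternatives were the size factors and Wald test of DESeq2 1.42.0, no filter, leaving out a resistant library, the authors' means, a pseudocount of 10 and a window of 5 Mb. Sequences came from RefSeq (GRCh38.p14 starts, found for 8 members) and GENCODE 29. Tandem repeats were searched with periods of 27 to 120 bases at 80% identity. Biopython 1.88, pandas 2.3.3 and matplotlib 3.10.9 were used.

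The members and gene lists were chosen with earlier results of these data known. Named were all members and, of each other list, genes with an adjusted p under 0.05 and the 3 with the highest mean CPM. Genes outside this rule are marked as picked with their values in view.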

Additional observations from a re-analysis of the deposited data

How the results depend on the processing

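The number of genes called in the whole table depended on the fit. It was 78 (20 higher, 58 lower) and became 145 (46 higher, 99 lower) with the size factors of DESeq2, 248 (122 higher, 126 lower) in the DESeq2 Wald test and 534 (273 higher, 261 lower) in edgeR without the filter on low counts, which tests 26434 genes. The count of members called went from 0 to 1 in each of these 3 fits, and the member was CEACAM6. In the lists other than markers the count went from 0 to 1 in the DESeq2 Wald test (FOXA2) and to 3 without the filter (FOXA2, FUT3 and GALNT18). Among the marker lists KRT17 was gained in both of these fits and KDR without the filter. The causes were not tested. Without the filter the SE of CEACAM5 was 0.623 against 1.38 with it. Over 36 alternatives run on the 6 members tested, 32 gave the same side of the threshold or a value within the spread, 3 put CEACAM6 past it, and 1, CEACAM5 without resistant replicate 2, moved the value to -4.09. Leaving out a resistant library turned the sign of 5 of the 6 log2 fold changes, none of them called, in MUC4 (-0.18 to 0.49), MUC16 (-0.61 to 0.50), MUC20 (-0.02 to 1.37), CEACAM1 (-1.61 to 0.86) and CEACAM5 (-4.09 to 0.07). It kept that of CEACAM6 (-6.27 to -4.04). With 1 parental library, leaving out a resistant library leaves the plain ratio of the other to parental 1. The sign must then turn wherever the parental value lies between the clones, so this count restates that order. In MUC20 and CEACAM5 the ratio of resistant 2 to parental 1 was within counting error. The alternatives that left out a resistant library or took the authors' means had no test and were judged by the spread alone. That spread comes from the same resistant pair, so a value within it says little. With a pseudocount of 10 the log2 ratios of the authors' means shrank to -2.75 for CEACAM6, 0.43 for MUC13 and -0.27 for CEACAM7. No paired analysis was possible because the groups share a single replicate number. Depth limited MUC1, MUC13 and CEACAM7, which had at most 8 reads in any library.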
